A study of Mus musculus with 6 samples.

Results

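Hmgb1 and Ager are 2 of the 254 genes measured with an nCounter panel (Mouse Inflammation V2), which counts barcoded probes bound to RNA, in the skin of SKH-1 mice, which are hairless and immunocompetent. They were chosen by name, as the transcript of the alarmin HMGB1 and that of its receptor RAGE. All animals were irradiated once on the back with solar simulated ultraviolet light (UVA at 90 kJ/m2 together with UVB at 6 kJ/m2), and the full skin thickness was collected after 24 h. In the UV group (n = 3) the skin received acetone, the vehicle. In the UV plus BMS-202 group (n = 3) it received BMS-202 at 8 mM in a volume of 200 µl. BMS-202 is a small-molecule blocker of the immune checkpoint ligand PD-L1. Treatment was repeated 3 times, at 24 h and 1 h before the light and directly after it. Unirradiated skin was not analysed here, so neither gene can be placed against its level before exposure.

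HMGB1 is an abundant protein of the cell nucleus that bends DNA and helps organise chromatin. When cells are damaged or die, or when immune cells secrete it, the protein leaves the cell and acts as an alarmin, a danger signal to neighbouring cells. Its receptors include RAGE, an immunoglobulin superfamily receptor encoded by Ager, and the Toll-like receptors TLR2, TLR4 and TLR9. RAGE signalling runs through small GTPases, MAP kinases and NF-kB, and RAGE is most abundant in lung alveolar epithelium and low in most other adult tissues. Ultraviolet light is a known trigger of HMGB1 release in skin. The release of the protein was not measured here, only the 2 transcripts.

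The deposited gene values are probe counts multiplied by 1 factor per sample, which sets the glycolytic gene Gapdh to 6417 in all 6 samples, and values that would be under 20 are written as 20. Dividing by that factor gave totals of 142900 to 160891 gene counts per UV sample and of 41537 to 45040 per BMS-202 sample. These totals leave out genes written as 20, which were 49 to 51 per UV sample and 18 to 19 per BMS-202 sample. Shares of gene counts and total count scaling below carry that limit. The positive spike-in controls had geometric means of 2060 to 2469 and 2091 to 2251 counts, so the gap in gene counts was not matched by the spike-ins. The negative control probes averaged 11 to 13.9 counts in the UV samples, against 17.4 to 18.5 in the others. The labels give 3 mice per group without tying samples to mice, so p-values measure only the spread between these samples, which may be technical. Keratinocyte markers were not analysed here. Fewer cells of a type and less RNA per cell cannot be told apart in this tissue RNA.

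Hmgb1 was abundant and Ager was close to background in irradiated skin, and the transcripts differed in opposite directions relative to Gapdh when BMS-202 was applied. The values of Hmgb1 in UV replicates 1 to 3 were 1297, 1291 and 1307. In UV plus BMS-202 replicates 1 to 3 they were 679.65, 687 and 609. The groups did not overlap, and the UV samples lay within a narrower range than the BMS-202 samples. The mean fell from 1299 ± 8.25 to 659 ± 42.9 (SD, n = 3), which is 1.97-fold lower. The log2 difference on the log2(value + 1) scale was -0.98 with a standard error of 0.051 (limma, adjusted p = 1.52e-08 over all 240 tested genes, which were above 20 in at least 3 samples). A lower level was the common outcome at this scaling: 55% of tested genes were called lower, and 56.2% were lower with no overlap between the groups.

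The values of Ager in UV replicates 1 to 3 were 28.7, 41.1 and 31.4. In UV plus BMS-202 replicates 1 to 3 they were 119.9, 94.3 and 109. The lowest BMS-202 sample was more than double the highest UV sample. The mean rose from 33.8 ± 6.51 to 107.8 ± 12.9 (SD, n = 3), 3.19-fold higher, with a log2 difference of 1.66 and a standard error of 0.15 (limma, adjusted p = 1.17e-06). Of all tested genes 38.3% were called higher, and 38.8% were higher with no overlap between the groups. By size of the log2 difference, Ager stood at place 45 of the 240 tested genes counted from the highest, and Hmgb1 at place 139.

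**Figure D1:**
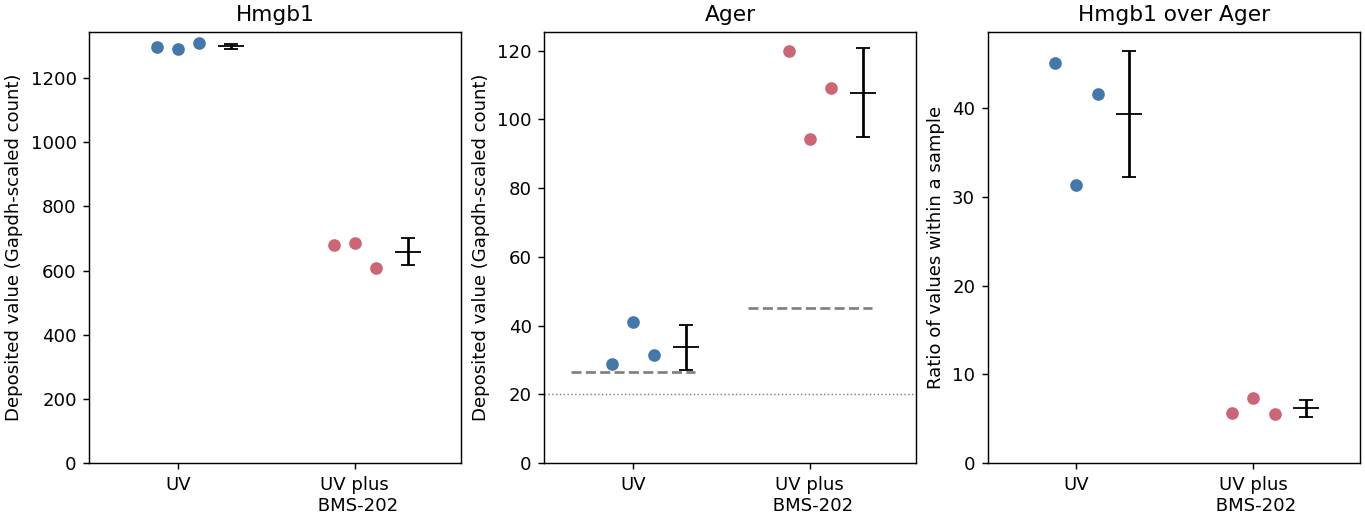
Deposited values of Hmgb1 (left) and Ager (middle) and the ratio of Hmgb1 to Ager within each sample (right), for the 3 UV samples and the 3 UV plus BMS-202 samples. Points are samples, bars are the mean and SD; dashed lines in the Ager panel mark the highest negative control limit of each group (26.6 and 45.3) and the dotted line marks the floor of 20. The Hmgb1 points fall from near 1299 to near 659 while the Ager points rise from near 33.8 to near 107.8, and the groups do not overlap in any panel.

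The depth behind the 2 genes differed widely. Hmgb1 rested on 1400, 1539 and 1498 recovered counts in UV replicates 1 to 3, and on 561, 576 and 558 in the BMS-202 replicates. Its mean count was thus 2.62-fold lower before any scaling, while the total over genes above 20 in each sample was 3.52-fold lower. Ager rested on 31, 49 and 36 counts with UV and on 99, 79 and 100 with BMS-202. It rose 2.40-fold before any scaling, although the BMS-202 samples held fewer gene counts in all. The exact Poisson 95% interval, which covers counting error only, was 36.3 to 64.8 around the 49 counts of UV replicate 2 and 62.5 to 98.5 around the 79 counts of BMS-202 replicate 2. These 2 intervals overlap as counts before any scaling. The factors of these 2 samples, 0.839 and 1.19, move the intervals apart on the deposited scale, so the overlap holds for unscaled counts only.

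The Ager values with UV lay just above the negative control limit, the mean of the 8 negative control probes plus 2 SD. The highest limit of the UV samples was 26.6 on the deposited scale, against an Ager minimum of 28.7. With BMS-202 the highest limit was 45.3, against an Ager minimum of 94.3. The background itself was higher with BMS-202: the mean of the negative control probes, put on the deposited scale, went from 11.1 to 20.9, a gain of 9.77. The gain in Ager was 74.1. With each sample's negative control mean subtracted, an alternative chosen after the data were seen, the log2 difference of Ager was 1.91 (limma, adjusted p = 7.67e-06) and that of Hmgb1 -1.01 (adjusted p = 3.76e-08). That fit called 35.4% of genes higher and 57.1% lower.

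The balance of the 2 transcripts within a sample does not depend on the factor applied to that sample. Hmgb1 read 45.2, 31.4 and 41.6 times the value of Ager in UV replicates 1 to 3. It read 5.67, 7.29 and 5.58 times the value of Ager in UV plus BMS-202 replicates 1 to 3. All 3 ratios with BMS-202 were lower than every ratio with UV. Probes differ in efficiency, so the size of a ratio is not a ratio of molecules, but efficiency cancels in its change between groups. Background does not cancel, and it differed between the groups. The mean ratio was 39.4 ± 7.14 with UV and 6.18 ± 0.964 with BMS-202 (SD, n = 3), a 6.38-fold fall. An exact permutation test over samples, two-sided, gave p = 0.1, the smallest that 3 against 3 samples allow. With every gene expressed relative to Hmgb1 in the same sample, Ager rose by 2.64 on the log2 scale, with a 95% interval of 2.28 to 2.99 (limma, adjusted p = 8.53e-08). In that fit 52.3% of 239 genes were called higher than Hmgb1, so a gain on Hmgb1 was common. With each sample's negative control mean subtracted the gain of Ager on Hmgb1 was 2.93 (limma, adjusted p = 8.62e-08).

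Panel genes of like abundance in UV skin gave a different background for each gene. The 20 tested genes nearest to Hmgb1 in UV mean had UV levels of 871 to 1904. All 20 were called lower with BMS-202, with a median log2 difference of -2.45 and a range of -3.84 to -1.73. Hmgb1, at -0.98, read highest of these 21 genes. Relative to Hmgb1 in the same samples, each of the 20 was called lower (limma, adjusted p under 0.05 in the fit of 239 genes, in which 39.7% were called lower). The complement gene C3, the nearest at a UV level of 1308, fell 8.95-fold. Tollip, which encodes an adaptor of interleukin 1 receptor and Toll-like receptor signalling, fell 3.95-fold, and Nfe2l2, which encodes the oxidative stress factor NRF2, fell 3.48-fold. Relative to Hmgb1 these 3 were lower by log2 differences of -2.18, -0.9998 and -0.82 (adjusted p = 6.64e-10, 8.05e-08 and 1.15e-06).

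The 20 tested genes with a UV mean higher than that of Hmgb1 were a set chosen after the data were seen. It shares C3, Tollip, Nfe2l2, Myc, C4a, Mapk3, Itgb2 and H2-Eb1 with the 20 neighbours, so it is not a separate set. In the fit relative to Hmgb1, which called 39.7% of 239 genes lower, 19 of the 20 genes above Hmgb1 were called lower. The exception was Hmgn1, which encodes another high mobility group protein of chromatin. The housekeeping genes, which were not tested, were split around Hmgb1. Cltc, which encodes clathrin heavy chain, read 9.77-fold lower with BMS-202, and Gusb, Hprt, Pgk1 and Tubb5 read 10.6, 6.32, 7.74 and 2.33-fold lower, all further down than Hmgb1. Gapdh, which the scaling holds fixed, read higher than Hmgb1. That order does not come from the scaling: before any scaling the mean count of Gapdh was 1.32-fold lower and that of Hmgb1 2.62-fold lower.

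For Ager the picture among genes of like level was ordinary. The 20 nearest genes had UV levels of 26.1 to 45.8, and 18 of them were called higher with BMS-202 and 1 lower, with 1 not past the threshold. Their median log2 difference was 1.59, with a range of -0.80 to 3.36. Ager, at 1.66, stood at place 11 of 21. Relative to Ager, 8 of the 20 were called lower, 3 higher and 9 had no call (limma, fit of 239 genes, of which 73.6% were called lower and 10.9% higher). Irf3, an interferon regulatory factor gene, was nearest in level and rose 3.81-fold, from 34.3 ± 2.93 to 131 ± 20.9 (SD, n = 3). Its difference from the response of Ager was 0.24 on the log2 scale (adjusted p = 0.333). Tslp, which encodes an epithelial cytokine, rose 4.32-fold and did not pass against Ager (adjusted p = 0.0763). Il15 went the other way, from 35.5 ± 1.42 to the floor of 20 in all 3 BMS-202 samples. Its UV values lie under the BMS-202 negative control limit of 45.3, and its difference was 0 under both housekeeping, the median and the total count scalings, where all its values fall to the raised floor.

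**Figure D2:**
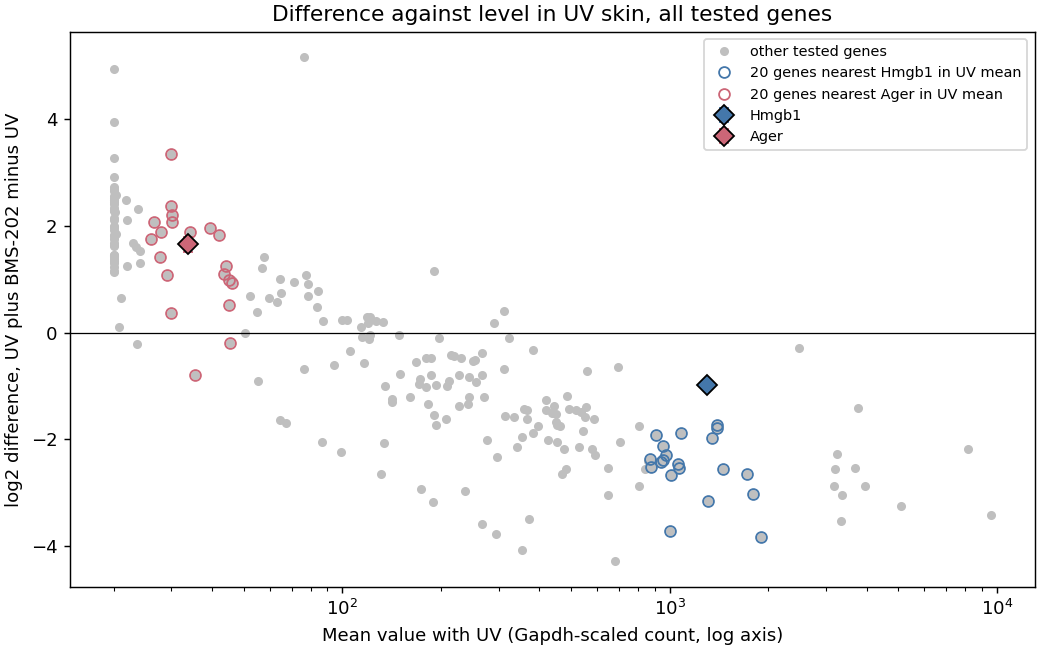
Each point is 1 of the 240 tested genes, with its mean deposited value in the UV samples (horizontal, log axis) and its log2 difference between UV plus BMS-202 and UV (vertical); open circles mark the 20 genes nearest each of Hmgb1 and Ager in UV mean, and diamonds mark Hmgb1 and Ager with standard errors, largely hidden by the symbols. Hmgb1 (-0.98) lies above all 20 of its neighbours (-3.84 to -1.73), whereas Ager (1.66) lies in the middle of its neighbours.

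The ranks of both genes within the samples moved up. Among all 254 genes Hmgb1 stood at place 24, 24 and 23 from the highest in the UV samples and at place 9, 9 and 11 in the BMS-202 samples. Ager stood at place 185, 180 and 186 with UV and at place 115, 164 and 131 with BMS-202. As a share of gene counts, Hmgb1 made up 0.957 to 0.987% in irradiated skin given vehicle and 1.24 to 1.35% in skin given BMS-202. The share of Ager was 0.0217 to 0.0305% and 0.185 to 0.238%.

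The direction of Hmgb1 therefore depended on what the samples were scaled to, whereas Ager was higher under every scaling tried. With the positive spike-in controls Hmgb1 fell further, to a log2 difference of -1.36 (limma, adjusted p = 4.92e-09), at a scaling in which 59.2% of genes were called lower. With the panel median it did not pass (-0.01, 95% interval -0.17 to 0.16, adjusted p = 0.943), with 51.7% of genes called higher and 40% lower. It turned to higher with total panel counts (0.43, adjusted p = 6.59e-05), quantile normalization (1.14, adjusted p = 4.84e-07), the 6 housekeeping genes (1.28, adjusted p = 1.82e-06) and the 5 other than Gapdh (1.73, adjusted p = 7.33e-07). Called higher in those 4 scalings were 58.3, 41.2, 76.7 and 84.2% of genes, and called lower were 30.8, 40, 14.2 and 6.25%. These scalings moved the median of all tested genes, which was -0.56 as deposited, by -0.37 (spike-ins) to 2.10 (5 housekeeping genes).

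Ager was called higher under each of these 6 scalings, by log2 differences of 1.13 (quantile, adjusted p = 0.00812) to 2.36. With the spike-in controls, which moved the panel downward, its difference was 1.28 (adjusted p = 7.14e-06) and 33.8% of genes were called higher. Housekeeping, median and total count scaling lower the UV values of Ager to a raised common floor, which limits its difference. Without raising that floor the differences were 2.61 (panel median), 3.03 (total counts), 3.86 (6 housekeeping genes) and 4.30 (5 housekeeping genes). The gain of Ager on Hmgb1 was lost with quantile normalization (-0.02, 95% interval -0.62 to 0.58, adjusted p = 0.946), which replaces values by those of equal rank and so compares ranks within a sample. The other scalings use 1 factor per sample, which cancels in this comparison, so only the raised floor could change the gain. With that floor it was 2.37 (panel median), 1.93 (total counts), 1.09 (6 housekeeping genes) and 0.63 (5 housekeeping genes).

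**Figure D3:**
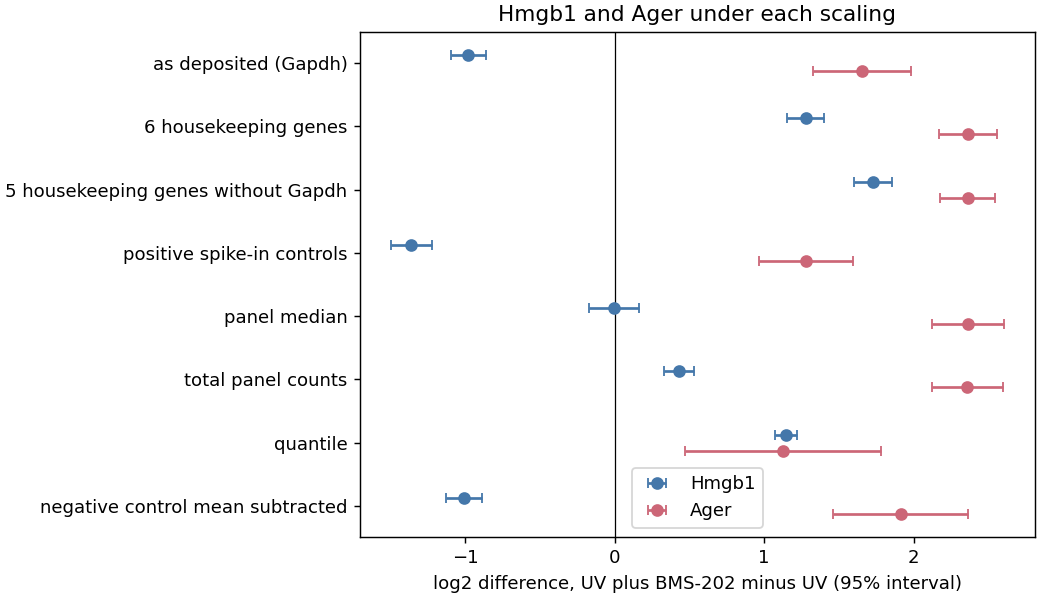
Log2 differences of Hmgb1 (blue) and Ager (red) between UV plus BMS-202 and UV, with 95% intervals from limma, for the deposited scaling, 6 other scalings and subtraction of the negative control mean. Hmgb1 ranges from -1.36 to 1.73 and crosses 0, while Ager stays between 1.13 and 2.36.

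The other high mobility group genes of the panel differed from Hmgb1. Hmgn1, which encodes a nucleosome-binding protein, read 2433, 2565 and 2465 with UV and 2103, 2043 and 1933 with BMS-202. It fell 1.23-fold with no overlap (log2 -0.30, standard error 0.040, limma adjusted p = 3.70e-05). Relative to Hmgb1 it was higher by 0.68 (adjusted p = 2.59e-07). Hmgb2, a close paralogue of Hmgb1 expressed mainly in dividing and lymphoid cells, was near the floor with UV, at 25.02, 20.97 and 20. With BMS-202 it read 58.2, 59.7 and 43.7, at least 2.03-fold above the UV negative control limit (limma, adjusted p = 5.24e-06). One of those 3 values lies under the BMS-202 negative control limit of 45.3. Hmgb2 also entered the fit only with the help of its BMS-202 values. Its UV values, all under the UV limit of 26.6, left it little room to read lower. Hmgn1 turned to higher under the median, total count, quantile and both housekeeping scalings, and Hmgb2 turned to -0.06 with quantile normalization (adjusted p = 0.751).

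The receptors and co-receptors of HMGB1 were split about as the whole panel was. Of 6 genes of this list on the panel, Ager and Tlr9 rose, Ly96, Tlr2 and Cxcr4 fell, and Tlr4 did not pass (median log2 difference -0.28, against -0.56 over all tested genes, of which 38.3% were called higher and 55% lower). Tlr9, which encodes an endosomal DNA sensor that also responds to HMGB1 bound to DNA, was at 20, 20 and 20.1 with UV and 118.7, 124.1 and 99.4 with BMS-202, at least 4.29-fold higher (limma, adjusted p = 2.85e-09). With UV values at the floor, Tlr9 entered the fit only through its BMS-202 values and had almost no room to read lower. Its p-value and its place among the genes that rose carry that limit. Ager was also close to background with UV, but lay above the floor in all 3 UV samples.

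Tlr4, which encodes the receptor for bacterial lipopolysaccharide and disulfide HMGB1, read 117.7, 125.8 and 117.8 with UV and 113.9, 111 and 105.9 with BMS-202. Its log2 difference of -0.13 had a 95% interval of -0.31 to 0.06 (limma, adjusted p = 0.168). It passed downward with the spike-in controls (-0.51, adjusted p = 1.69e-04) and with the negative control mean subtracted (-0.29, adjusted p = 0.0177), and turned positive under the other 5 scalings. Its co-receptor gene Ly96, which encodes MD-2, the subunit that HMGB1 binds, went from 202.9, 174.5 and 192 with UV to the floor of 20 in all 3 BMS-202 samples. Against the negative control limit of 45.3 it was at least 4.19-fold lower (adjusted p = 2.32e-10), and it was lower under all scalings. The receptor and its co-receptor thus differed in their readings, with Ly96 at the floor and Tlr4 well above it.

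Tlr2, a receptor gene for bacterial lipoproteins, fell 2.37-fold, from 142 ± 5.95 to 59.8 ± 12.1 (SD, n = 3, limma adjusted p = 1.10e-05). Cxcr4, which encodes the receptor through which HMGB1 bound to CXCL12 attracts monocytes, fell 1.35-fold, from 219 ± 10.4 to 162 ± 21.7 (adjusted p = 0.00193). Cxcr4 turned to called higher under both housekeeping, the median (0.53), the total count (0.97) and the quantile (0.64) scalings. Tlr2 turned positive under both housekeeping and total count scalings, without passing in the last (0.14, adjusted p = 0.382), and lost its call with the panel median (-0.29, adjusted p = 0.122). Relative to Hmgb1, Tlr4 and Cxcr4 were higher by 0.85 and 0.54 (adjusted p = 5.29e-06 and 1.63e-04), and Tlr2 did not pass (-0.27, adjusted p = 0.0520).

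The transcripts of proteins that relay signals from RAGE and from Toll-like receptors fell with BMS-202 relative to Gapdh. Of 14 relay genes on the panel 13 fell and 1 rose, where 55% of all tested genes were called lower and 38.3% higher, with a median log2 difference of -2.52 against -0.56 over all tested genes. The 13 that fell were abundant, with UV means of 366 (Mapk8) to 8188 (Cdc42). A fall was common among abundant genes: all 20 genes nearest Hmgb1 in UV mean were called lower, with a median of -2.45. Whether relay genes differ from other genes of like UV mean was not tested. Stat3, which encodes a transcription factor, fell 7.40-fold, from 3171 ± 19.3 to 428 ± 19.9 (SD, n = 3, limma adjusted p = 1.71e-12). Cdc42, which encodes a small GTPase that acts in RAGE-driven cytoskeletal change, fell 4.57-fold, from 8188 ± 49.3 to 1792 ± 42.9 (adjusted p = 9.10e-13). The member that rose was Hras1, which encodes the GTPase HRAS and was named after its value was seen. It went from 52.1 ± 10.2 to 83.0 ± 3.53 (adjusted p = 7.53e-04). Cdc42 turned to small positive log2 differences under both housekeeping scalings, 0.07 with the 6 (adjusted p = 0.224) and 0.52 with the 5 (adjusted p = 1.51e-04), while Stat3 was lower under all scalings.

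Of 7 cytokine and mediator genes that HMGB1 and RAGE signalling is known to induce, 6 fell and 1 rose, beside 55% called lower and 38.3% higher over all tested genes. The median log2 difference was -0.80, against -0.56 over all. Ccl2, which encodes a monocyte chemokine, fell 5.32-fold (860 ± 7.53 to 162 ± 12.3, SD, n = 3, limma adjusted p = 7.97e-11). Il1b, which encodes interleukin 1 beta, fell 2.86-fold (436 ± 24.3 to 152 ± 4.50, adjusted p = 3.56e-09). The member that rose was Tnf, from 64.9 ± 8.13 to 109 ± 5.21 (adjusted p = 8.47e-05), also named after its value was seen. Ccl2 turned to higher with the 5 housekeeping genes and did not pass with the 6 (-0.15, adjusted p = 0.0803). Il1b turned to higher with both sets and did not pass with total counts (-0.11, adjusted p = 0.0966) or quantile normalization (-0.13, adjusted p = 0.102). Of the other alarmin genes on the panel, Il1a fell 1.53-fold, and Il18 fell to values under the negative control limit.

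**Figure D4:**
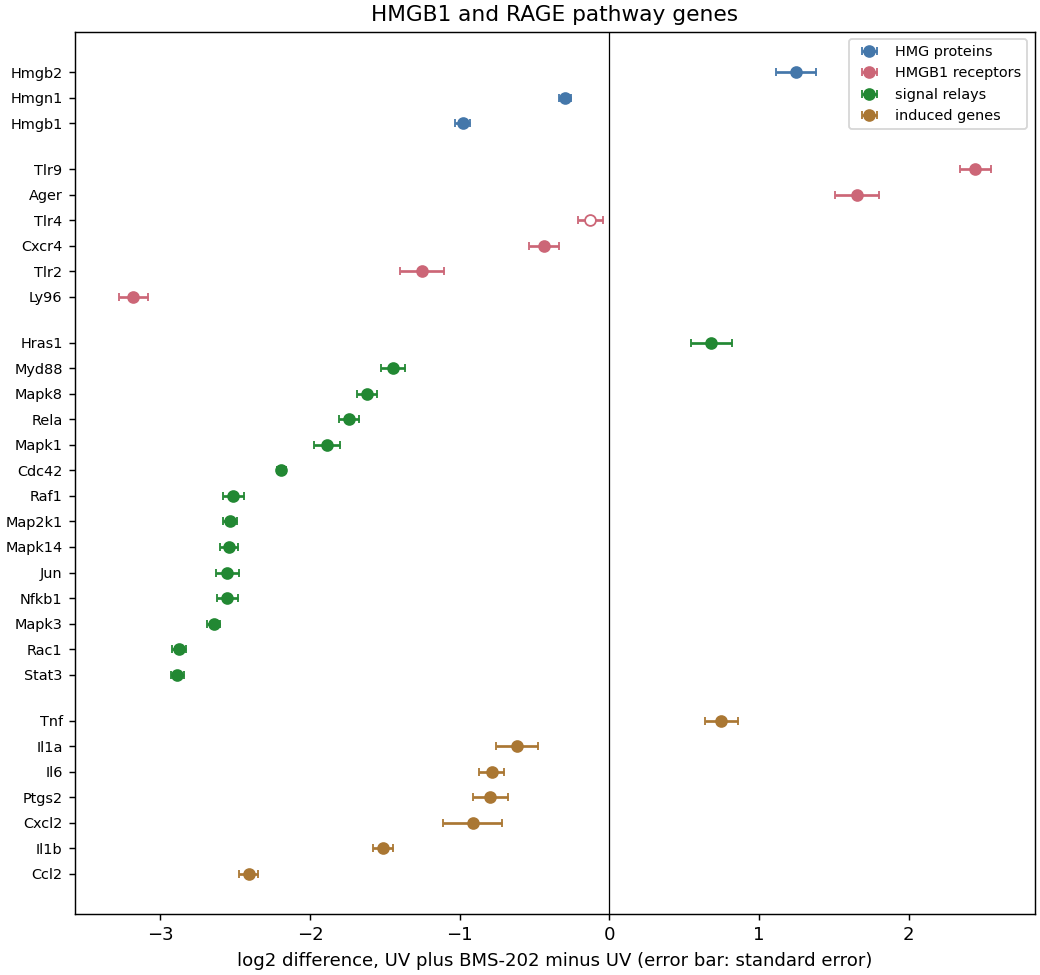
Log2 differences between UV plus BMS-202 and UV at the deposited scaling, with standard errors, for the genes of the HMG, receptor, relay and induced lists on the panel; filled points passed an adjusted p of 0.05 in limma and the open point, Tlr4, did not. The relay genes lie below 0 except Hras1, while the receptor genes spread from Ly96 (-3.18) to Tlr9 (2.45).

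The genes most like Hmgb1 in their readings were Traf2, Cd163 and Limk1, by the root mean square distance over the 6 samples between log2 values centred on each gene's UV mean (0.074, 0.080 and 0.089). They encode a TNF receptor adaptor, a macrophage scavenger receptor and a kinase of the actin cytoskeleton. Their UV levels of 208, 180.1 and 193 were well under that of Hmgb1, and they fell 2.004, 2.04 and 1.98-fold. The genes most like Ager were Ltb, Il17a and Cd40lg (0.13, 0.17 and 0.20), which encode a lymphotoxin, a T helper cytokine and the T cell ligand of CD40. Il17a and Cd40lg were listed at 20 throughout the UV group, where no lower value can be read, and Ltb was under the UV negative control limit.

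Markers of immune cells moved in both directions, and their counts stand beside 55% of all tested genes called lower and 38.3% higher. Of 8 macrophage markers 6 fell, 1 rose and 1 did not pass, and their summed value was between 5664 and 5821 per UV sample and between 1556 and 1735 per BMS-202 sample, with none at the floor throughout a group. Of 4 antigen presentation markers 1 fell and 3 rose, with sums of 2039 to 2060 and 390.1 to 426. The lower sum reflects H2-Eb1, which fell from a mean of 1904 to 134 and made up most of the UV sum. Cd86 rose from 78.3 to 127 and Cd40 from 45.0 to 89.8, and H2-Ea-ps, which read 20 in every UV sample, could only rise. The 5 T cell markers summed to 136 to 161 and 369.9 to 383. Of these Ccr4, Cd40lg and Fasl read 20 in every UV sample, so that they entered the fit only through their BMS-202 values and could not read lower. The other T cell markers, Cd4 and Ltb, rose. Of 2 neutrophil receptor markers, Cxcr1 read 20 in every UV sample and could only rise, and Cxcr2 did not pass, with sums of 119 to 145 and 183 to 221. The part of these cells in the readings of Hmgb1 and Ager was not tested.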

How the data were processed

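RNA was extracted on columns and hybridised to the nCounter panel, per the labels' protocols. Gene values were deposited as a scaled signal: divided by 1 step per sample, 100% of those above 20 were whole numbers, to within a tolerance of 0.006 that widens by a millionth of the value. The sources used here name neither the software nor the reference gene. The 6 positive and 8 negative control rows are unscaled counts. The step also gave recovered counts, used for depth, for shares of gene counts and total count scaling, and put the control rows on the deposited scale for limits, spike-in scaling and background subtraction.

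Endogenous genes above 20 in at least 3 of 6 samples (240) were fitted together with limma 3.58.1 in R 4.3.3 (lmFit, eBayes with trend) on log2(value + 1), with Benjamini-Hochberg adjustment at 0.05. Subtracting the log2 value of Hmgb1, or of Ager, in each sample before the same fit tested genes against that gene. A positive difference is higher with BMS-202; folds are ratios of group means, against the group's highest negative control limit where a mean lay under it ("at least"). After rescaling, 1 floor was set at the highest rescaled 20. The script was tested on simulated data. Same-numbered samples did not deviate together (correlations -0.03 to 0.02), so no pairing was used. Members, gene lists and tests were chosen with earlier results of these data known. Named genes were the HMG and receptor lists, the 2 relay and 2 induced genes with the smallest p, and, for each of Hmgb1 and Ager, the 3 nearest in UV mean and the 3 most alike. Symbols follow the deposited table, and 247 of 254 were found in the RefSeq table of GRCm38.p6, used for names only.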

Additional observations from a re-analysis of the deposited data

Results flagged for a closer look

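Several control rows, which serve here only to scale samples and to set background limits, read higher in all 3 UV plus BMS-202 samples than in all 3 UV samples. The mean of the 8 negative control probes was 17.9 counts with BMS-202 and 12.7 with UV, 1.41-fold higher. Among single negative probes this held for NEG_A (22.7 against 15.7 counts), NEG_E (24.7 against 13.3), NEG_G (25.7 against 6.67) and NEG_H (13.0 against 8.33). The lowest positive control, POS_F, averaged 133 counts with BMS-202 and 85.3 with UV. These values bear on Ager, which rested on 31 to 49 counts per UV sample and 79 to 100 per BMS-202 sample, and on Hmgb2. With the negative control mean subtracted the log2 difference was 1.91 for Ager and 1.52 for Hmgb2 (limma, adjusted p = 7.67e-06 and 2.13e-04).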

How the results depend on the processing

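Scaling decided the direction of Hmgb1 and of most genes named beside it. Each alternative below gives log2 differences. With the 6 housekeeping genes the values were Hmgb1 1.28, Hmgn1 1.96, Tlr2 0.98, Tlr4 2.11, Cxcr4 1.81, Cdc42 0.068, Il1b 0.74, Tollip 0.28, Nfe2l2 0.46, Traf2 1.25, Cd163 1.22 and Limk1 1.26, with 184 genes called higher and 34 lower. With the 5 other than Gapdh they were Hmgb1 1.73, Hmgn1 2.41, Tlr2 1.43, Tlr4 2.40, Cxcr4 2.26, Cdc42 0.52, Ccl2 0.30, Il1b 1.19, Tollip 0.73, Nfe2l2 0.91, Traf2 1.70, Cd163 1.67 and Limk1 1.71, with 202 higher and 15 lower. With total panel counts, chosen after the data were seen, they were Hmgb1 0.43, Hmgn1 1.11, Tlr2 0.14, Tlr4 1.27, Cxcr4 0.97, Traf2 0.41, Cd163 0.38 and Limk1 0.42, with 140 higher and 74 lower. With the panel median they were Hmgb1 -0.0062 (not past the threshold), Hmgn1 0.68, Tlr4 0.84 and Cxcr4 0.53, with 124 higher and 96 lower. With quantile normalization they were Hmgb1 1.14, Hmgb2 -0.063, Hmgn1 1.64, Tlr4 0.12, Cxcr4 0.64 and Ager against Hmgb1 -0.018. Hmgb1 had the same values where the floor was not raised, also chosen after the data were seen. As deposited, 92 genes were higher and 132 lower.

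The median of the 20 genes nearest Hmgb1 moved to -0.20 (6 housekeeping genes), 0.25 (5), -2.83 (spike-ins), -1.48 (panel median), -0.71 (quantile) and -2.33 (40 genes). That of the 20 nearest Ager moved to 2.09 (both housekeeping sets), 1.25 (spike-ins), 1.95 (panel median), 0.82 (quantile), 1.92 (10 genes) and 1.36 (40 genes). All 20 neighbours were called lower than Hmgb1 under the 15 alternatives of the fit that could change this. The 10 scalings by 1 factor per sample cancel in a comparison within samples and do not bear on it. Leaving out each sample in turn gave -1.01 to -0.92 for Hmgb1, 1.55 to 1.80 for Ager and 2.53 to 2.79 for Ager against Hmgb1, with every call kept. With the replicate number as a block the differences of Hmgb1 and Ager stayed at -0.98 and 1.66 (limma, adjusted p = 1.81e-06 and 8.68e-05), and no other call among the named results was lost. The planned count models were not run, since the values are scaled and floored. Depth limits Ager with UV, at 31 to 49 counts.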
